A study of Mus musculus with 9 samples.

Results

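The genes described are 31 mouse genes that mark the steps of adult neurogenesis, chosen by symbol from the literature of neural stem cells, neuron-committed progenitors, immature neurons and the cell cycle. They fall into 9 stem and radial glial genes, 4 genes of intermediate progenitors, 10 of migrating and immature neurons, and 8 of the cell cycle. All 31 were found among the 55421 genes of the count table and all 31 passed the filter on low counts that left 20032 genes to test. No measured value entered the choice, although it was made with earlier results of these libraries known.

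In the adult hippocampus, new granule neurons arise in the subgranular zone of the dentate gyrus. Quiescent radial glia-like stem cells marked by Sox2, nestin and Hopx give rise to dividing intermediate progenitors, which switch on Eomes, Neurog2 and Neurod1. These give rise to doublecortin-positive neuroblasts, which mature into granule neurons. Several stem cell genes, among them Sox2, Fabp7 and Hopx, are also made by mature astrocytes, so in bulk RNA they do not mark stem cells alone.

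The 9 libraries were bulk RNA-seq of hippocampal cells from mice with a neuronal tdTomato reporter, a red fluorescent protein, sorted live for that fluorescence. Knockout mTBI (3 libraries) carried a conditional knockout of Tmsb4x, which encodes the actin-sequestering peptide thymosin beta 4, and had 1 mild controlled cortical impact, the model of mild traumatic brain injury (mTBI). Wild-type mTBI (3 libraries) had the impact without the deletion, and wild-type sham (3 libraries, called labelled sham for a reason given with Tmsb4x) had the operation without the impact. The labels do not give the Cre driver, the promoter of the reporter, the deleted part of Tmsb4x, strain, sex, age or time after injury, and no group combines the knockout with sham surgery. Stem cells and progenitors are not neurons, so a sort for a neuronal reporter need not keep them, and bulk counts cannot tell fewer cells of a type from less RNA per cell.

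Tmsb4x itself checked the labels. Levels are CPM, that is counts divided by each library's effective size after trimmed mean of M-values scaling. Tmsb4x stood at 1.83, 2.79 and 2.77 CPM in knockout mTBI, 899.5, 553 and 297 in wild-type mTBI and 2.73, 1.68 and 2.23 in labelled sham. The 3 libraries labelled wild-type sham were thus at the level of the knockout and not of the injured wild type. The adjusted p was 0.999 for knockout mTBI against labelled sham and 2.07e-05 for knockout against wild-type mTBI. Wild-type mTBI stood 263-fold above labelled sham, with adjusted p = 1.89e-05. That comparison is called the injury comparison below after its labels, although its groups also differed in Tmsb4x. The exact permutation p over libraries (two-sided, at least 0.1 in this design) was 0.1 for knockout against wild-type mTBI and 0.5 for knockout mTBI against labelled sham. Every direction given against labelled sham rests on a label that Tmsb4x does not bear out. Totals were 36452443 to 39590872 counts per library. The labelled cell type was present, with 8 neuronal markers at a sum of 11153 to 11619 CPM in knockout mTBI, 10068 to 11766 CPM in wild-type mTBI and 11837 to 12140.3 CPM in labelled sham. Markers of glia, which a live sort for a neuronal reporter is meant to leave out, were present in every library, with sums over the 9 libraries of 5249 to 9597 CPM for oligodendrocytes, 3599 to 4525 CPM for astrocytes and 340.3 to 506 CPM for microglia. The labelled sham libraries differed among themselves by a biological coefficient of variation of 3.26%, against 18.7% in knockout mTBI and 19.6% in wild-type mTBI. The series text counts 3 mice a group, and p-values against labelled sham depend on whether those 3 libraries, so close to each other, are separate mice. The fit estimates spread over all groups together, so p-values and intervals of knockout against wild-type mTBI depend on it as well. Wild-type mTBI replicate 3 had the X-inactivation RNA Xist at 835 CPM and Y-linked Ddx3y at 0.0498 CPM, while Xist reached no more than 0.892 CPM in any other library. Markers of choroid plexus, the tissue that secretes cerebrospinal fluid, summed to 57.0 to 3798 CPM in knockout mTBI, 3238 to 4499 CPM in wild-type mTBI and 48.1 to 49.3 CPM in labelled sham.

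Promoter sequences were taken from RefSeq on GRCm38.p6 as 250 bases before to 50 bases after the start of each gene, and 26 of the 31 genes had one. The windows below belong to Eomes and Hopx, the 2 genes of smallest p among the 31, and the capitals mark the 50 bases after the start.
Eomes, chr9:118477939-118478238, + strand: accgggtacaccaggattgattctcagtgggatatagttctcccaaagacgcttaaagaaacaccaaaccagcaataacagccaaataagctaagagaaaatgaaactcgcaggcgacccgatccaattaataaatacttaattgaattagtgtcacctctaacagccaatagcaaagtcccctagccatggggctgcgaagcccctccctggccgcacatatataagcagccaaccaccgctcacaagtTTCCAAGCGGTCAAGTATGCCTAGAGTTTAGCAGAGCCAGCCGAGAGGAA
Hopx, chr5:77115074-77115373, - strand: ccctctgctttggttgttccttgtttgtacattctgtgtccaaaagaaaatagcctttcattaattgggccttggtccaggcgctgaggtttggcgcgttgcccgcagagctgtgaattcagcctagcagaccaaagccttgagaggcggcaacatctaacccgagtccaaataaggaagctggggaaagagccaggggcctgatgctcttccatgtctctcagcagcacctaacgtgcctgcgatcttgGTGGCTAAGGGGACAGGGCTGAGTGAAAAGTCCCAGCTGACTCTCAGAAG
The next 3 windows are those of mitotic genes, shown for 2 short motifs counted on either strand, TTTGAA, the core of the cell cycle homology region element, and CCAAT, the box bound by NF-Y. Capitals mark each match, and the 2 motifs shared 0 bases.
Cdk1, chr10:69352863-69353162, - strand: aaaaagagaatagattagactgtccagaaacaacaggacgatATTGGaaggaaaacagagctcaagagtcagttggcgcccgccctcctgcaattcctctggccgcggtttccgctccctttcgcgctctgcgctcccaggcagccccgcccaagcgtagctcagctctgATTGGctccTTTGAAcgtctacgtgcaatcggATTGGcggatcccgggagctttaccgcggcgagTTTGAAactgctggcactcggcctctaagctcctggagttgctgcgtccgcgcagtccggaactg
Top2a, chr11:99024140-99024439, - strand: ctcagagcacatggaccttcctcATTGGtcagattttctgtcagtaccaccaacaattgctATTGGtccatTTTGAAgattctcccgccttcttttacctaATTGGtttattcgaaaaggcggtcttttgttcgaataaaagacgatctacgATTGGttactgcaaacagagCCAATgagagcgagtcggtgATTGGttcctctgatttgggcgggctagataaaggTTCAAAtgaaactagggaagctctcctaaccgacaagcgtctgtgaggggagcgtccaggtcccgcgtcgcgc
Mki67, chr7:135716330-135716629, - strand: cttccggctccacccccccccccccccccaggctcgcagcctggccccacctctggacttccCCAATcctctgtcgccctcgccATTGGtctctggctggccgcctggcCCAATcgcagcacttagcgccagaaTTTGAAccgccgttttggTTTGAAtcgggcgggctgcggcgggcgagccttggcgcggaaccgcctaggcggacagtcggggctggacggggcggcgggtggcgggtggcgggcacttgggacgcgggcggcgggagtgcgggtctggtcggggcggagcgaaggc
TTTGAA stood in 4 of the 6 cell cycle genes that had a window (Mki67, Top2a, Cdk1 and Cenpf) and in 7 of all 26, against 17.9% of 32851 mouse windows. CCAAT stood in 5 of the same 6 and in 16 of 26, against 37.4% of windows. These are matches of letters and were not tested as sites.

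Per exon length, the genes spanned a wide range of levels, from the replication clamp Pcna to the transcription factor Tfap2c. Levels per length are CPM per kilobase of exon (RPKM), as means of the 9 libraries. Pcna stood highest at 15.6 RPKM, next to Sox2, Hopx and Fabp7 at 14.9 RPKM each, Thrsp at 12.6, Elavl4 at 10.7 and Ccnd2 at 10.3 RPKM. At the low end stood the mitotic genes Cdk1 at 0.123 and Cenpf at 0.102 RPKM, and Tfap2c at 0.0690 RPKM. Sox2, Hopx, Fabp7 and Thrsp stood far above the progenitor gene Eomes, which averaged 0.674 RPKM in knockout mTBI, 0.340 RPKM in wild-type mTBI and 0.176 RPKM in labelled sham. The immature neuron gene Dcx averaged 2.46 RPKM over the 9 libraries and Mki67 0.450 RPKM.

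**Figure D1:**
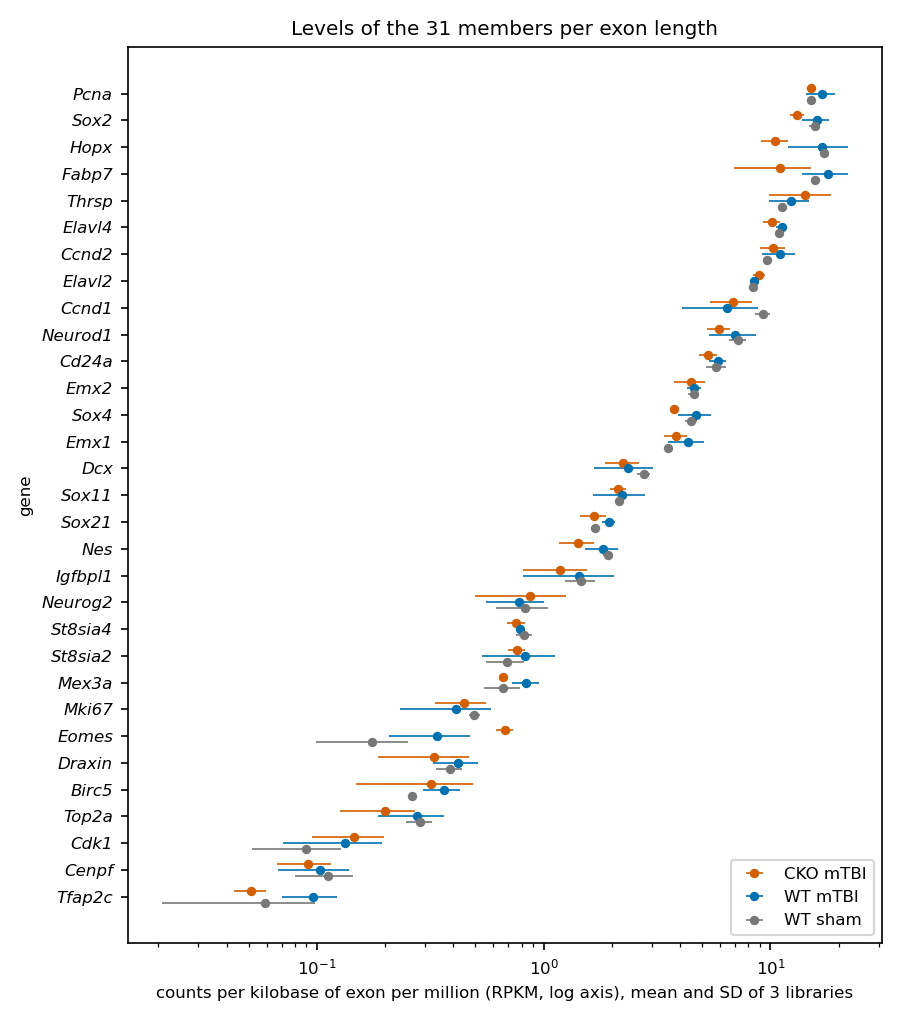
Mean level per exon length (RPKM, log axis) of the 31 genes in knockout mTBI (CKO), wild-type mTBI (WT) and labelled sham, with bars for the SD of 3 libraries, ordered by the mean of all libraries. Pcna lies at the top with a mean of 15.6 RPKM and Tfap2c at the bottom with 0.0690 RPKM.

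None of the 31 genes passed the test in any of the 3 comparisons (edgeR quasi-likelihood test, Benjamini-Hochberg adjusted p under 0.05 over 20032 genes). In wild-type mTBI against labelled sham, 0 of 31 were called against 0.509% of all genes, and the smallest adjusted p was 0.313. Knockout against wild-type mTBI called 0 of 31 against 0.0150% of all genes, with a smallest adjusted p of 0.732. Knockout mTBI against labelled sham called 0 of 31 against 0.0699% of all genes, with a smallest adjusted p of 0.136. DESeq2 called 0, 0 and 2 of the 31 in these comparisons, in the same order, and limma voom 0, 0 and 2, each time Eomes and Hopx. Both genes were also called in knockout mTBI against labelled sham when wild-type mTBI replicate 1 was left out of the edgeR fit.

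At an unadjusted p under 0.05 the injury comparison held 2 of the 31 genes, against 13.2% of all genes. Eomes was higher (1 of 31, against 7.45% of all genes) and Ccnd1 lower (1 of 31, against 5.79%). The knockout comparison in injured mice held 6 of 31, against 6.60% of all genes. Eomes was higher (1 of 31, against 3.25%), and Hopx, Fabp7, Sox2, Nes and Sox4 were lower (5 of 31, against 3.35%). Knockout mTBI against labelled sham held 4 of 31, against 7.20% of all genes. Here again Eomes was higher (1 of 31, against 4.58%), and Hopx, Nes and Sox2 were lower (3 of 31, against 2.62%). These counts moved with single libraries. Leaving out wild-type mTBI replicate 3 took the knockout count to 2. The injury count became 5 when wild-type mTBI replicate 1 was dropped, 1 when labelled sham replicate 3 was dropped and 0 when labelled sham replicate 1 was dropped. Knockout mTBI against labelled sham held 7 when wild-type mTBI replicate 1 was dropped. The 3 comparisons share libraries and are not independent of each other.

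The median log2 difference of the 31 genes was 0.04 in wild-type mTBI minus labelled sham, -0.16 in knockout minus wild-type mTBI and -0.12 in knockout mTBI minus labelled sham, against 0.02, 0.00 and 0.01 over all genes. In the knockout comparison 24 of 31 genes had a negative difference, and 50.2% of all genes had a positive one. Groups did not overlap for 3 of 31 genes in the injury comparison (23.9% of all genes), 5 of 31 in the knockout comparison (9.72%) and 7 of 31 in knockout mTBI against labelled sham (17.2%). The 95% interval lay within 2-fold in either direction for 26 of 31 genes in the injury comparison, for 24 in the knockout comparison and for 23 in knockout mTBI against labelled sham, and within 1.5-fold for 15, 14 and 13 of 31.

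**Figure D2:**
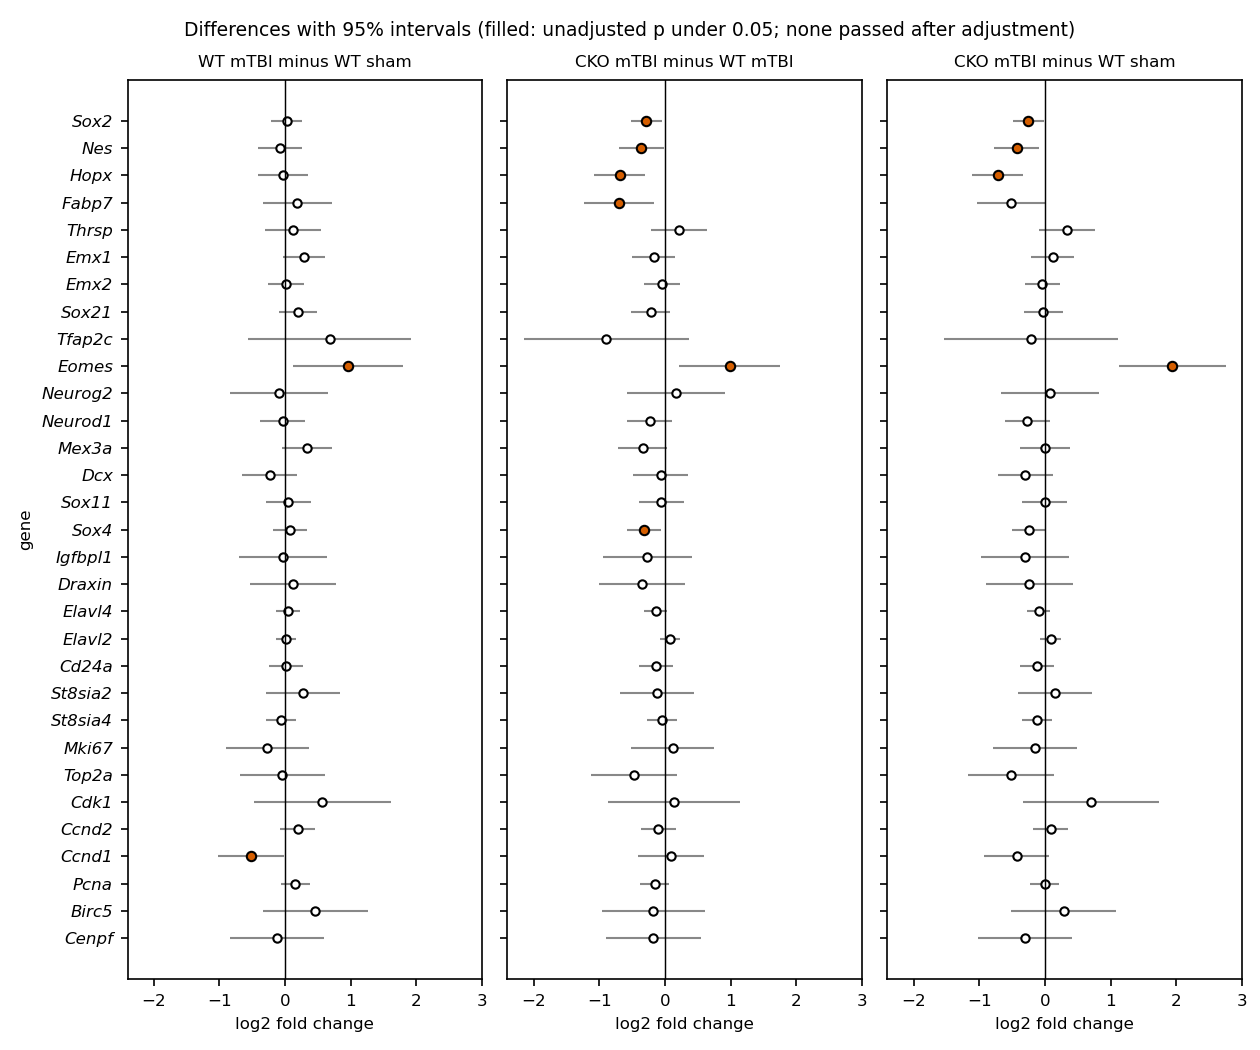
Log2 difference with 95% interval for each of the 31 genes in the 3 comparisons, ordered by role, with a line at 0 and filled points for an unadjusted p under 0.05. Eomes lies farthest to the positive side at 1.94 in knockout mTBI minus labelled sham, and most intervals of the immature neuron and cell cycle genes span 0.

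The stem and radial glial genes stood lowest, in sum, in the knockout. Their summed level was 126.5, 125.1 and 124.1 CPM in knockout mTBI, against 172.1, 128.3 and 151.4 CPM in wild-type mTBI and 145.1, 141.0 and 143.5 CPM in labelled sham. All 3 knockout libraries thus lay below every other library, by a small margin to wild-type mTBI replicate 2. Of the 9 genes, 8 had a negative difference from wild-type mTBI (median log2 -0.28) and 4 were lower at an unadjusted p under 0.05, against 3.35% of all genes, with 0 called. Of 18 other stem cell genes from a separate list, 12 had a negative difference in the same comparison (median log2 -0.14). At an unadjusted p under 0.05 stood Sox9, higher without overlap (0.21 ± 0.09 SE), and Lpar1, lower with overlap (-0.45 ± 0.20 SE). The 18 genes summed to 1189 to 1330 CPM in knockout mTBI, 1161 to 1520 CPM in wild-type mTBI and 1363 to 1381 CPM in labelled sham. In knockout mTBI minus labelled sham 12 of 18 were negative (median log2 -0.08). Only Gli1 had an unadjusted p under 0.05 there, higher without overlap (0.77 ± 0.25 SE, adjusted p = 0.415). Several of these genes are made by astrocytes too, and 10 astrocyte markers summed to 3934 to 4490 CPM in knockout mTBI, 3599 to 4070 CPM in wild-type mTBI and 4441 to 4525 CPM in labelled sham. Slc1a2 and Aldoc, at means of 2637 and 736 CPM over the 9 libraries, carry most of that sum. Of the 10 markers, 6 were positive and 4 negative in knockout minus wild-type mTBI (median log2 0.01). In knockout mTBI minus labelled sham 5 were positive and 5 negative (median log2 0.03). Groups did not overlap there for 2 higher and 3 lower, against 17.2% of all genes in either direction. The astrocyte sums of knockout and wild-type mTBI overlapped, and the part of astrocytes in the stem cell values was not tested.

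Hopx, a homeodomain-only cofactor that marks quiescent stem cells and astrocytes, stood at 17.3, 13.5 and 17.1 CPM in knockout mTBI, 34.3, 20.2 and 22.6 in wild-type mTBI and 25.5, 25.7 and 27.4 in labelled sham. Every knockout library lay below every other library, and wild-type mTBI replicate 1 was the highest. The log2 difference was -0.69 ± 0.18 (SE, n = 3 each) between knockout and wild-type mTBI, with a 95% interval of -1.07 to -0.30 and adjusted p = 0.732. Without wild-type mTBI replicate 1 it was -0.42. Between knockout mTBI and labelled sham it was -0.72 ± 0.18 (SE), adjusted p = 0.224, which ranged over the alternative settings between 0.000872 and 1.00. Wild-type mTBI and labelled sham differed by -0.03 ± 0.18 (SE), with a 95% interval of -0.41 to 0.35.

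Fabp7, the brain lipid-binding protein of radial glia and astrocytes, stood at 18.7, 8.44 and 14.2 CPM in knockout mTBI, 23.6, 16.8 and 26.7 in wild-type mTBI and 19.9, 19.5 and 19.4 in labelled sham. Knockout mTBI replicate 2 was the lowest library, and the highest knockout library lay above the lowest wild-type mTBI library. The log2 difference was -0.70 ± 0.24 (SE) between knockout and wild-type mTBI, adjusted p = 0.732, and -0.44 without knockout replicate 2. Sox2, the transcription factor that keeps neural stem cells undifferentiated, stood at 29.0, 25.2 and 26.9 CPM in knockout mTBI, 36.5, 27.8 and 34.3 in wild-type mTBI and 34.0, 30.5 and 32.3 in labelled sham. Its differences were -0.28 ± 0.11 (SE) from wild-type mTBI, where groups overlapped, and -0.26 ± 0.11 (SE) from labelled sham, where they did not, with adjusted p = 0.732 and 0.627. Sox2 lies inside the transcription unit of the noncoding gene Sox2ot, and reads from the 2 genes may not be fully told apart.

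Nes encodes nestin, the intermediate filament of neural stem cells, which endothelial cells also make. Its level was 10.8, 7.65 and 8.89 CPM in knockout mTBI, 10.4, 10.8 and 13.9 in wild-type mTBI and 11.6, 12.7 and 12.6 in labelled sham. The knockout libraries did not overlap labelled sham (log2 -0.43 ± 0.15 SE, adjusted p = 0.500) but overlapped wild-type mTBI (-0.36 ± 0.15 SE, adjusted p = 0.732), and without wild-type mTBI replicate 3 that last difference was -0.21.

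Emx1 and Sox21 were the stem cell genes of smallest p in the injury comparison. Emx1, a homeobox gene of the dorsal telencephalon, stood at 8.45, 7.42 and 9.30 CPM in knockout mTBI, 11.2, 7.85 and 9.24 in wild-type mTBI and 7.76, 7.74 and 7.70 in labelled sham. Wild-type mTBI did not overlap labelled sham, with a log2 difference of 0.29 ± 0.15 (SE) and adjusted p = 0.429. Sox21, a SoxB2 factor, stood at 7.06, 5.45 and 6.47 CPM in knockout mTBI, 7.93, 6.96 and 7.22 in wild-type mTBI and 6.46, 6.28 and 6.54 in labelled sham, and the same groups did not overlap (0.20 ± 0.13 SE, adjusted p = 0.549). Tfap2c, a progenitor transcription factor, was near the limit of detection at 0.209, 0.153 and 0.205 CPM in knockout mTBI, 0.359, 0.255 and 0.448 in wild-type mTBI and 0.286, 0.0551 and 0.314 in labelled sham, and its interval of -0.56 to 1.92 in the injury comparison leaves its direction undetermined. Emx2 ranged over 12.0 to 15.8 CPM and overlapped in every comparison. Its start overlaps the antisense gene Emx2os, and strand was ignored in counting. Thrsp, a regulator of lipogenesis that marks quiescent stem cells, was the one stem cell gene with a positive difference between knockout and wild-type mTBI (0.21 ± 0.19 SE, adjusted p = 0.777). Its level was 41.5 CPM in knockout mTBI replicate 2 and 22.9 to 33.1 CPM in the other 8 libraries.

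**Figure D3:**
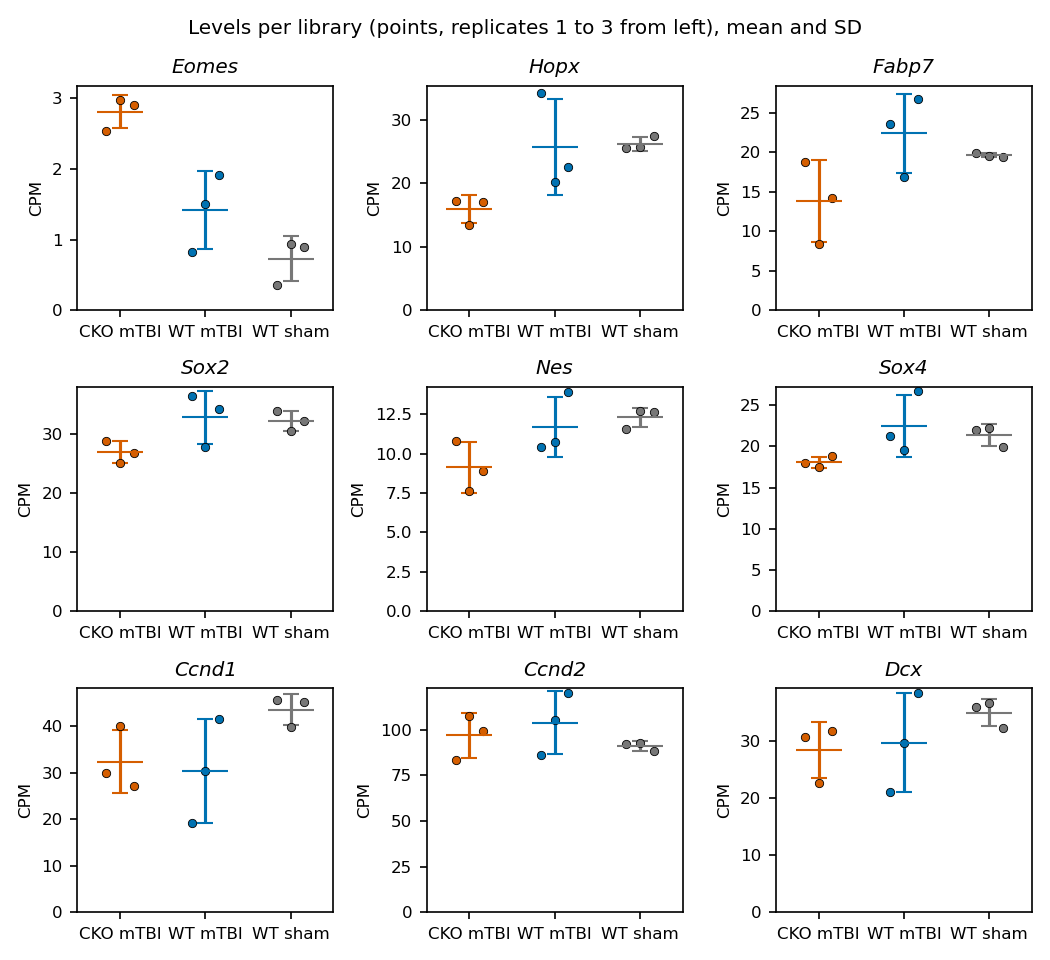
CPM of 9 of the genes in knockout mTBI (CKO), wild-type mTBI (WT) and labelled sham from left to right, with points for libraries and bars for the mean and SD of 3. The 3 knockout points of Eomes lie above all others (2.54 to 2.97 CPM) and those of Hopx below all others (13.5 to 17.3 CPM).

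Eomes gave the largest difference among the 31 genes. Eomes, also called Tbr2, is the T-box factor that defines intermediate progenitors, and in adult forebrain it is also made by some mature neurons. It stood at 2.54, 2.97 and 2.90 CPM in knockout mTBI, 0.821, 1.5 and 1.92 in wild-type mTBI and 0.363, 0.937 and 0.890 in labelled sham, or 97, 116 and 113 counts in knockout mTBI, 32, 59 and 77 in wild-type mTBI and 14, 34 and 34 in labelled sham. The lowest knockout library lay above the highest of the others. The log2 difference was 1.94 ± 0.37 (SE, n = 3 each) between knockout mTBI and labelled sham, 3.83-fold, with a 95% interval of 1.12 to 2.76 and adjusted p = 0.136. Between knockout and wild-type mTBI it was 0.98 ± 0.35 (SE), with an interval of 0.21 to 1.76 and adjusted p = 0.732. Wild-type mTBI and labelled sham differed by 0.95 ± 0.38 (SE), adjusted p = 0.313, and 0.63 without labelled sham replicate 1. Over the alternative settings, the difference between knockout mTBI and labelled sham lay between 1.61 and 2.15, with adjusted p between 0.000148 and 1.00.

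None of the other 3 progenitor genes had every knockout library above all others, as Eomes did. In each comparison 2 of the 4 progenitor genes had a positive difference. Neurog2, the proneural factor that acts beside Eomes, stood at 1.23, 2.86 and 1.75 CPM in knockout mTBI, 1.36, 1.56 and 2.29 in wild-type mTBI and 2.10, 1.30 and 2.15 in labelled sham and overlapped between all groups. Neurod1, which drives granule neuron differentiation and stays on in young and mature granule neurons, stood at 14.2, 17.8 and 16.7 CPM in knockout mTBI, 24.1, 17.2 and 15.9 in wild-type mTBI and 19.8, 21.1 and 17.8 in labelled sham. Its log2 difference between knockout and wild-type mTBI was -0.23 ± 0.16 (SE), adjusted p = 0.740. Mex3a, an RNA-binding protein of progenitors, stood at 3.87, 3.81 and 3.78 CPM in knockout mTBI, 4.39, 4.56 and 5.58 in wild-type mTBI and 3.51, 4.63 and 3.38 in labelled sham. Every knockout library of Mex3a lay below every wild-type mTBI library, with a difference of -0.34 ± 0.17 (SE) and adjusted p = 0.732, and the knockout mean of 3.82 CPM was next to 3.84 CPM in labelled sham. In the injury comparison Mex3a, like Eomes, had a positive difference (0.34, adjusted p = 0.424). Summed, the 4 genes stood at 21.8 to 27.5 CPM in knockout mTBI, 24.9 to 30.7 CPM in wild-type mTBI and 24.2 to 27.9 CPM in labelled sham, and the groups overlapped. Neurod1 carries most of that sum, at a mean of 18.3 CPM over all libraries against 1.65 CPM for Eomes.

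Genes of immature neurons overlapped between groups in sum, which was 224.9 to 240.5 CPM in knockout mTBI, 231.1 to 267.5 CPM in wild-type mTBI and 234.5 to 250.3 CPM in labelled sham. Elavl2 and Elavl4, which mature neurons also make, carry most of that sum. The highest library exceeded the lowest by 1.18 times for Elavl2 and by 2.59 times for Igfbpl1. In the injury comparison none of the 10 separated the groups, against 23.9% of all genes, and 7 were positive (median log2 0.03). In knockout minus wild-type mTBI 9 of 10 were negative (median log2 -0.13), where 50.2% of all genes were positive. Groups did not overlap there for 1 of 10, against 9.72% of all genes. In knockout mTBI minus labelled sham 8 were negative (median log2 -0.12) and 2 did not overlap, against 17.2% of all genes. Dcx, the microtubule-binding doublecortin that marks neuroblasts, stood at 30.7, 22.8 and 31.9 CPM in knockout mTBI, 21.1, 29.6 and 38.5 in wild-type mTBI and 35.9, 36.8 and 32.4 in labelled sham. The log2 difference between wild-type mTBI and labelled sham was -0.24 ± 0.19 (SE), with an interval of -0.65 to 0.18 and adjusted p = 0.608, and it was -0.04 without wild-type mTBI replicate 1 and -0.47 without replicate 3. Knockout mTBI did not overlap labelled sham (-0.30 ± 0.19 SE, adjusted p = 0.882).

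Sox4, a SoxC factor that switches on neuronal genes in newborn neurons, was the one immature neuron gene with an unadjusted p under 0.05 between knockout and wild-type mTBI. It stood at 18.0, 17.5 and 18.8 CPM in knockout mTBI, 21.2, 19.6 and 26.7 in wild-type mTBI and 22.0, 22.2 and 19.9 in labelled sham, and the knockout libraries lay below all others. The difference from wild-type mTBI was -0.31 ± 0.12 (SE), adjusted p = 0.732, and -0.17 without wild-type mTBI replicate 3, the library with Xist. Its partner Sox11 overlapped in every comparison, at 14.0 to 23.5 CPM.

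St8sia2 and St8sia4 encode the polysialyltransferases that put polysialic acid on NCAM of young neurons. St8sia2 stood at 3.84, 3.99 and 4.52 CPM in knockout mTBI, 2.69, 5.00 and 5.70 in wild-type mTBI and 2.96, 4.35 and 3.77 in labelled sham. St8sia4 stood at 14.8, 16.7 and 14.1 CPM in knockout mTBI, 15.4, 15.5 and 16.2 in wild-type mTBI and 17.9, 15.4 and 16.1 in labelled sham. Both overlapped between groups, with injury differences of 0.27 ± 0.26 and -0.06 ± 0.10 (SE) and adjusted p = 0.662 and 0.810. Elavl4 and Elavl2, neuronal RNA-binding proteins also made by mature neurons, varied least of the 31, by 1.21 and 1.18 times between the highest and lowest library. Elavl4 stood at 60.1, 52.5 and 51.5 CPM in knockout mTBI, 62.4, 56.7 and 61.9 in wild-type mTBI and 57.8, 61.0 and 56.8 in labelled sham, with a difference of -0.14 ± 0.08 (SE) between knockout and wild-type mTBI and adjusted p = 0.739. Elavl2 ranged over 67.0 to 79.1 CPM. The surface glycoprotein Cd24a at 12.3 to 16.5 CPM, the secreted guidance factor Draxin at 1.20 to 2.74 CPM and the neuroblast gene Igfbpl1 at 2.67 to 6.90 CPM overlapped in every comparison.

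Of the 8 cell cycle genes, 0 separated knockout from wild-type mTBI, where 9.72% of all genes did. From labelled sham 0 of 8 separated knockout mTBI, where 17.2% of all genes did. With only 8 genes, a count of 0 cannot be told from these shares. The interval lay within 2-fold in either direction for 6 of 8 and 4 of 8 genes, in the same order. The cell cycle genes summed to 157.4 to 197.1 CPM in knockout mTBI, 160.4 to 214.2 CPM in wild-type mTBI and 177.6 to 185.6 CPM in labelled sham. Ccnd2, Pcna and Ccnd1 carry most of that sum, at means of 97.2, 37.6 and 35.4 CPM over all libraries. Ccnd1 and Ccnd2 encode the D-type cyclins that carry cells through G1, and Ccnd2 is the one known to be needed for adult hippocampal neurogenesis in mice. Ccnd1 stood at 29.9, 40.0 and 27.1 CPM in knockout mTBI, 19.2, 30.3 and 41.5 in wild-type mTBI and 45.6, 39.8 and 45.3 in labelled sham. The injury difference was -0.52 ± 0.23 (SE), adjusted p = 0.360, with groups that overlapped, and -0.28 without wild-type mTBI replicate 1. Ccnd2 stood at 83.5, 108 and 99.3 CPM in knockout mTBI, 86.1, 105 and 120.3 in wild-type mTBI and 92.0, 92.9 and 88.3 in labelled sham, with an injury difference of 0.19 ± 0.12 (SE) and adjusted p = 0.518.

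Pcna, the sliding clamp of DNA polymerase that also serves in repair in cells that do not divide, stood at 36.6, 36.8 and 35.0 CPM in knockout mTBI, 47.1, 35.5 and 38.5 in wild-type mTBI and 36.7, 35.0 and 36.9 in labelled sham. Wild-type mTBI replicate 1 stood apart, and the other 8 libraries lay within 35.0 to 38.5 CPM. Birc5, the survivin subunit of the chromosomal passenger complex, stood at 0.627, 1.74 and 0.899 CPM in knockout mTBI, 1.33, 0.969 and 1.39 in wild-type mTBI and 0.883, 0.882 and 0.916 in labelled sham, and wild-type mTBI did not overlap labelled sham (0.46 ± 0.36 SE, adjusted p = 0.596). Top2a, the topoisomerase of dividing cells, stood at 1.65, 2.51 and 1.23 CPM in knockout mTBI, 2.21, 1.86 and 3.39 in wild-type mTBI and 2.49, 2.26 and 2.93 in labelled sham, with a difference of -0.47 ± 0.30 (SE) between knockout and wild-type mTBI and adjusted p = 0.740. The proliferation antigen Mki67 ranged over 2.36 to 5.93 CPM, with both extremes in wild-type mTBI, and the mitotic kinase Cdk1 over 0.236 to 0.996 CPM. Cenpf, a kinetochore protein, ranged over 1.10 to 2.21 CPM. Mki67 differed by -0.27 ± 0.29 (SE) between wild-type mTBI and labelled sham, with an interval of -0.90 to 0.37 on the log2 scale, or 0.534 to 1.29 times the labelled sham level.

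Single libraries stood out. Wild-type mTBI replicate 3, the library with Xist, held the highest level of 15 of the 31 genes, where 10.6% of all genes tested were highest in that library. These were 7 of 10 immature neuron genes, 4 of 8 cell cycle genes, 3 of 9 stem cell genes and 1 of 4 progenitor genes. Wild-type mTBI replicate 1 held the highest level of 7 of 31, where 27.1% of all genes were highest there. Knockout mTBI replicate 2 held the lowest level of 6 of the 9 stem cell genes, where 13.7% of all genes were lowest there. Relative to the labelled sham mean, the median of the 31 genes was 0.25 (log2) in wild-type mTBI replicate 3 and -0.15 in knockout mTBI replicate 1. Wild-type mTBI replicate 3 also held the highest level of 7 of 10 oligodendrocyte markers (median log2 0.51 relative to labelled sham), and knockout mTBI replicate 2 the highest level of 8 of 10 microglia markers (median log2 0.53). The part of sex and of these glial cells in the values was not tested.

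**Figure D4:**
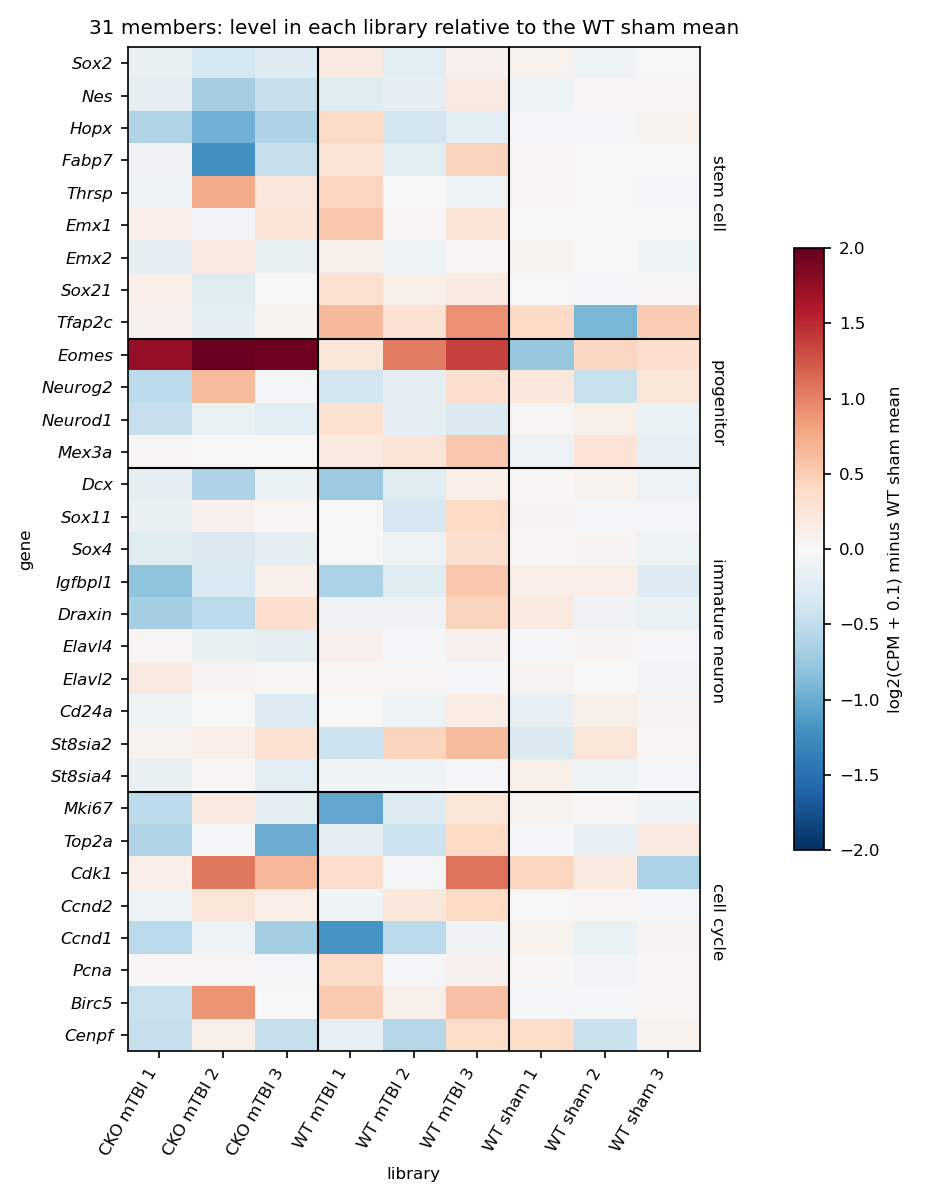
Colour gives log2(CPM + 0.1) of each of the 31 genes in each library minus the mean of the 3 labelled sham libraries, with knockout mTBI, wild-type mTBI and labelled sham from left to right. The column of wild-type mTBI replicate 3 has the highest value for 15 of the 31 genes.

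Further genes of the same pathway, 112 tested in 6 lists written with earlier results known, gave 1 called gene. In wild-type mTBI against labelled sham, Cdkn1c was higher (1 of 112 called, against 0.509% of all genes). At an unadjusted p under 0.05 stood 16 of 112 in the injury comparison, 12 in the knockout comparison and 8 in knockout mTBI against labelled sham, where all genes gave 13.2%, 6.60% and 7.20%. Cdkn1c encodes the cyclin-dependent kinase inhibitor p57, which keeps adult stem cells quiescent, and choroid plexus expresses it as well. It stood at 2.56, 6.06 and 3.44 CPM in knockout mTBI, 6.54, 6.09 and 4.86 in wild-type mTBI and 1.87, 2.18 and 1.99 in labelled sham. The injury difference was 1.53 ± 0.28 (SE), 2.90-fold, adjusted p = 0.0468, with no overlap, and the call was lost without any 1 of the 3 wild-type mTBI or 3 labelled sham libraries or without knockout mTBI replicate 3 (adjusted p 0.0616 to 0.275). The choroid plexus marker Ttr stood at 23.0, 3398 and 2748 CPM in knockout mTBI, 2965, 4021 and 4113 in wild-type mTBI and 17.5, 16.5 and 17.3 in labelled sham, so it was high in the 3 wild-type mTBI libraries and in 2 of the 3 knockout libraries. The part of choroid plexus cells in the Cdkn1c value was not tested.

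Of the other 111 genes, the edgeR fit called 0 in any comparison. Tac2, a tachykinin gene in the progenitor list, had the smallest p of these in the knockout comparison. It stood at 1.80, 2.12 and 2.47 CPM in knockout mTBI, 4.28, 3.49 and 3.69 in wild-type mTBI and 2.28, 2.56 and 2.15 in labelled sham, without overlap between knockout and wild-type mTBI (-0.84 ± 0.19 SE, adjusted p = 0.732). Ccnd3, the remaining D-type cyclin, stood at 15.8, 23.3 and 17.2 CPM in knockout mTBI, 17.0, 20.1 and 20.9 in wild-type mTBI and 14.3, 13.8 and 12.7 in labelled sham, and wild-type mTBI did not overlap labelled sham (0.51 ± 0.15 SE, adjusted p = 0.174). In the immature neuron list, 8 of 21 genes had an unadjusted p under 0.05 on the lower side in the knockout comparison, against 3.35% of all genes, and 0 were called. Tbr1 and Fxyd7 had the smallest p there, both without overlap (-0.31 ± 0.09 and -0.44 ± 0.14 SE, adjusted p = 0.732 each). Tbr1 was higher without overlap in the injury comparison (0.24 ± 0.09 SE, adjusted p = 0.308). In the injury comparison 14 of these 21 had a positive difference, with a median log2 of 0.14. At an unadjusted p under 0.05 stood 3 higher and 1 lower, against 7.45% and 5.79% of all genes. Groups did not overlap there for 8 higher and 3 lower, against 23.9% of all genes in either direction. Wild-type mTBI replicate 1 held the highest level of 8 of the 21, where 27.1% of all genes were highest. In knockout mTBI against labelled sham the same list held 1 higher and 2 lower of 21, against 4.58% and 2.62% of all genes, with a median log2 difference of -0.06. Tubb2b, a neuronal beta-tubulin, stood at 161, 169 and 181 CPM in knockout mTBI, 200.3, 187 and 203 in wild-type mTBI and 199, 207 and 206 in labelled sham, with differences of -0.21 ± 0.07 (SE) from wild-type mTBI and -0.26 ± 0.07 (SE) from labelled sham and adjusted p = 0.732 and 0.267. Nnat, neuronatin, stood at 325, 257 and 253 CPM in knockout mTBI, 327, 281 and 285 in wild-type mTBI and 357, 367 and 366 in labelled sham, and knockout mTBI lay below labelled sham without overlap (-0.39 ± 0.10 SE, adjusted p = 0.266). Calb2, the calcium-binding protein calretinin of young granule neurons and some interneurons, was the gene on the higher side, at 42.4 to 68.5 CPM in knockout mTBI, 43.3 to 51.6 CPM in wild-type mTBI and 37.3 to 41.3 CPM in labelled sham. Knockout mTBI and labelled sham did not overlap (0.47 ± 0.15 SE, adjusted p = 0.399), and without knockout mTBI replicate 1 the difference was 0.25. Under other settings some of these genes were called. Ccnd3 in the injury comparison was called in 3 of 20 alternatives, among them voom (adjusted p = 0.00784). In knockout mTBI against labelled sham, Nnat was called in 5, among them DESeq2 (adjusted p = 0.0355) and the fit without knockout mTBI replicate 1 (0.0266), Tubb2b in 2, DESeq2 and voom (0.0344 and 0.0395), and Calb2 in 1, without the count filter (0.0265).

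The S phase list of 18 genes had 0 with an unadjusted p under 0.05 in any comparison, and the G2 and M phase list of 25 had 0, 0 and 1 in the injury comparison, the knockout comparison and knockout mTBI against labelled sham, where all genes gave 13.2%, 6.60% and 7.20%. In the cell cycle lists knockout mTBI replicate 2 stood apart for Cdkn1a and Anln. Cdkn1a, the p53 target p21, stood at 4.78, 22.0 and 5.42 CPM in knockout mTBI, 4.41, 4.13 and 6.87 in wild-type mTBI and 5.87, 4.82 and 4.63 in labelled sham. Anln, anillin, which serves in cytokinesis and is also made by oligodendrocytes, stood at 36.4, 70.4 and 35.6 CPM in knockout mTBI, 43.7, 34.4 and 33.8 in wild-type mTBI and 39.7, 41.0 and 42.8 in labelled sham. Neither was called, and 10 oligodendrocyte markers summed to 6487 to 7645 CPM in knockout mTBI, 5249 to 9597 CPM in wild-type mTBI and 6725 to 6754 CPM in labelled sham. Markers of olfactory neuroblasts, another source of immature neuron transcripts, summed to 223 to 237 CPM in knockout mTBI, 231 to 240 CPM in wild-type mTBI and 243 to 256 CPM in labelled sham. Etv1 and Meis2 carry most of that sum. In wild-type mTBI minus labelled sham 8 of the 10 markers were positive (median log2 0.33), opposite to the sum. At an unadjusted p under 0.05 stood 2 higher and 1 lower, against 7.45% and 5.79% of all genes. In knockout minus wild-type mTBI 8 of 10 were negative (median log2 -0.16). At that p 0 were higher and 3 lower, against 3.25% and 3.35%. In knockout mTBI minus labelled sham 6 of 10 were negative (median log2 -0.03), with 0 higher and 1 lower, against 4.58% and 2.62%. None was called in any comparison. The part of these cell types in the values was not tested.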

How the data were processed

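The deposited values were raw counts per Ensembl gene that the authors made with featureCounts 2.0.6, per the file headers, using exons of GRCm38 genes in Ensembl release 98. By the command in the header, each mate counted as 1 read, multi-mapping reads did not count and no strand was set. FastQC, Trim Galore, HISAT2, SAMtools and MultiQC and the genome mm10 are named in the submitters' processing notes. Symbols and exon lengths came from GENCODE M21, which matched 55240 of 55421 genes.

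Counts were filtered with filterByExpr (20032 genes kept), scaled by TMM and put through edgeR 4.0.16 (R 4.3.3) in 1 fit of all 9 libraries. Its quasi-likelihood test was two-sided. The common biological coefficient of variation was 15.3%, and the degrees of freedom were 6 residual plus 5.12 prior. Benjamini-Hochberg adjustment covered all genes of a comparison, with calls made below 0.05. SE are of the fitted coefficients, and 95% intervals use 11.1 degrees of freedom. Values with an SE or SD have 3 libraries a group. The steps were tested on simulated data in which all groups had the same spread, unlike these libraries. Changes were set there only in genes of higher counts, so that test does not cover the lowest members.

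The members, the gene lists and the rules were chosen with earlier results of these data known. Values in every library are given for called members and, per role, for the 4 of smallest p in the injury and the 2 of smallest p in the knockout comparison. Sox2 and Nes were added after their values were seen. Of each list of other pathway genes, called genes and up to 3 of smallest p per comparison could be named. Ttr was named as the most abundant choroid plexus marker. Alternatives were DESeq2 1.42.0, limma voom (limma 3.58.1), other scalings and filters, a replicate block, a fit of the 6 libraries compared, halved counts, and libraries left out or summed.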

Additional observations from a re-analysis of the deposited data

How the results depend on the processing

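With 20 alternatives, none of the 31 genes was called in most settings. In wild-type mTBI against labelled sham, 0 were called under every alternative except 1 without the count filter (Ccnd1) and 1 when both injured groups lost their replicate 1 (Ccnd2), and 0 to 0 when single libraries were left out. In knockout against wild-type mTBI the exception was 2 without the count filter (Hopx and Fabp7), and 0 to 0 with single libraries left out. In knockout mTBI against labelled sham, 2 were called by DESeq2, by voom, without the count filter and without both replicate 1 libraries (Eomes and Hopx each time), 1 in the fit of the 6 libraries compared (Hopx), and 0 to 2 with single libraries left out. The cause of these moves was not tested. Summing the labelled sham libraries to 1 sample was chosen after seeing the data.

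Genes called over all genes in the 3 comparisons (injury, knockout, knockout mTBI against labelled sham) were 102, 3 and 14. They were 541, 18 and 226 by DESeq2, 722, 4 and 279 by voom, 676, 68 and 387 without the count filter, 253, 1 and 71 in the fit of 6 libraries, 64, 3 and 14 with the stricter filter, 1, 1 and 0 with labelled sham summed, and 523, 24 and 337 without both replicate 1 libraries. With single libraries left out they ranged over 5 to 252, 2 to 7 and 2 to 128.

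With the replicate number as a block, 0 members were called in each comparison, and 107, 3 and 13 genes in all. Deviations of same-numbered libraries correlated at -0.089 to 0.073, so no pairing by number was seen. The labelled sham libraries varied by only 3.26%, which leaves little to correlate. Whether same-numbered libraries shared a litter or batch was not tested.

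Directions near 0 turned in the injury comparison. Neurog2 (-0.09) was 0.0080 by voom, 0.056 without wild-type mTBI replicate 1, also when knockout mTBI lost its replicate 1, 0.0048 without labelled sham replicate 1 and 0.030 without labelled sham replicate 3, with a lowest value of -0.35 without wild-type mTBI replicate 3. Neurod1 (-0.04) was 0.020 and 0.072 without wild-type mTBI replicates 2 and 3 and 0.013 without labelled sham replicate 2, with a lowest value of -0.24 without wild-type mTBI replicate 1. Sox4 (0.08) was -0.075 without wild-type mTBI replicate 3 and at most 0.16, without replicate 2. The Cdkn1c call was also lost with the stricter filter (adjusted p = 0.0538) and with labelled sham summed (1.00). Depth limits Tfap2c and Cdk1 most, which had the lowest counts and the widest intervals of the 31.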
